A study of Mus musculus with 32 samples.

Results

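Neural progenitors are the dividing cells of the early neural plate and retina from which neurons and glia arise. A small set of transcripts marks them, and 9 of these genes are described here: Sox1, Sox3, Sox21, Fabp7, Nes, Vim, Pou3f2, Pou3f3 and Msi1. They were taken by gene symbol from the deposited expression table, where they make up 9 of 55492 rows. All 9 passed the filter on low values, at least 1 FPKM (fragments scaled to transcript length and library size) in at least 2 of 32 libraries.

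Sox1 and Sox3 encode SoxB transcription factors that, with their relative Sox2, hold cells in the progenitor state, and Sox21 encodes a SoxB factor that acts mainly as a repressor and favours exit from it. Pou3f2 and Pou3f3 encode closely related POU-domain transcription factors of neural progenitors and young neurons. Fabp7 encodes a fatty acid carrier of radial glia and is a known target of Notch signalling, Nes and Vim encode intermediate filament proteins of progenitors, and Msi1 encodes an RNA-binding protein kept in neural stem and progenitor cells.

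The libraries hold polyadenylated RNA of mouse embryonic stem cells (day 0) and of retinal organoids grown from them for 2, 4 and 6 days, with AGN at 0.1 µM in the differentiation medium. WT is the Rx:GFP stem cell line, untreated. KO is labelled as a knockout of Mettl3, whose product catalyses the writing of N6-methyladenosine (m6A) on RNA. The fusion groups are labelled as the same knockout overexpressing wild-type METTL3 joined to a part named GRBD, without dexamethasone (no Dex) or with it at 10 µM (Dex). The series' design text calls the fusion protein cytosolic without dexamethasone and nuclear with it, so those groups carry the knockout as well as the added protein. The labels do not say what GRBD stands for or whether a line is 1 clone. The protocol gives dexamethasone for 2, 4 and 6 days, while a day 0 group also carries the Dex label, and the label was followed. Each of the 16 groups (4 lines at 4 days) holds 2 libraries, made in separate rounds of library preparation. The labels do not say if they are from different cultures, so p-values measure the spread between these libraries, which may be technical.

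Estimated depth ran from 28.8 to 52.8 M fragments (M stands for mega; median 37.2 M), and the lowest Pearson r between duplicates, across genes, was 0.9922. At these depths 3 fragments correspond to between 0.098 and 0.18 FPKM for Fabp7, the shortest of the 9 transcripts, and to at most 0.0591 FPKM for the other members. Mettl3 itself showed no drop under the KO label: the WT mean was 34.98 FPKM at day 0 and that of KO 43.36 FPKM, and the day 6 means were 35.72 and 37.59 FPKM. The part of the gene that was removed is not given in the sources used here, so a level over the whole transcript does not check the label. Pou5f1, the defining pluripotency factor, fitted the day 0 label, at 884 FPKM in WT at day 0 and 37.9 FPKM at day 6, and Pax6, a regulator of the eye and forebrain, was at 4.01 and 110 FPKM. KO below means the libraries labelled KO, and every direction against KO rests on that label.

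All 9 genes were higher at day 6 than at day 0 in KO, no Dex and Dex, and 8 of 9 in WT, where Vim was lower. A gene was called here at a Benjamini-Hochberg adjusted p under 0.05 in limma's test on log2(FPKM + 1), adjusted over all 16276 tested genes. Most of the transcriptome moved over the same days: 78.1% of tested genes were called in WT (43.6% higher, 34.5% lower), 80.4% in KO (45% and 35.4%), 81.9% in no Dex (48% and 33.9%) and 80.4% in Dex (46.4% and 34%). The members' median log2 change was 2.61 in WT, 4.04 in KO, 3.20 in no Dex and 3.47 in Dex, against all-gene medians of 0.09, 0.09, 0.17 and 0.14. In bulk RNA, fewer cells of a type and less RNA per cell cannot be told apart.

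**Figure D1:**
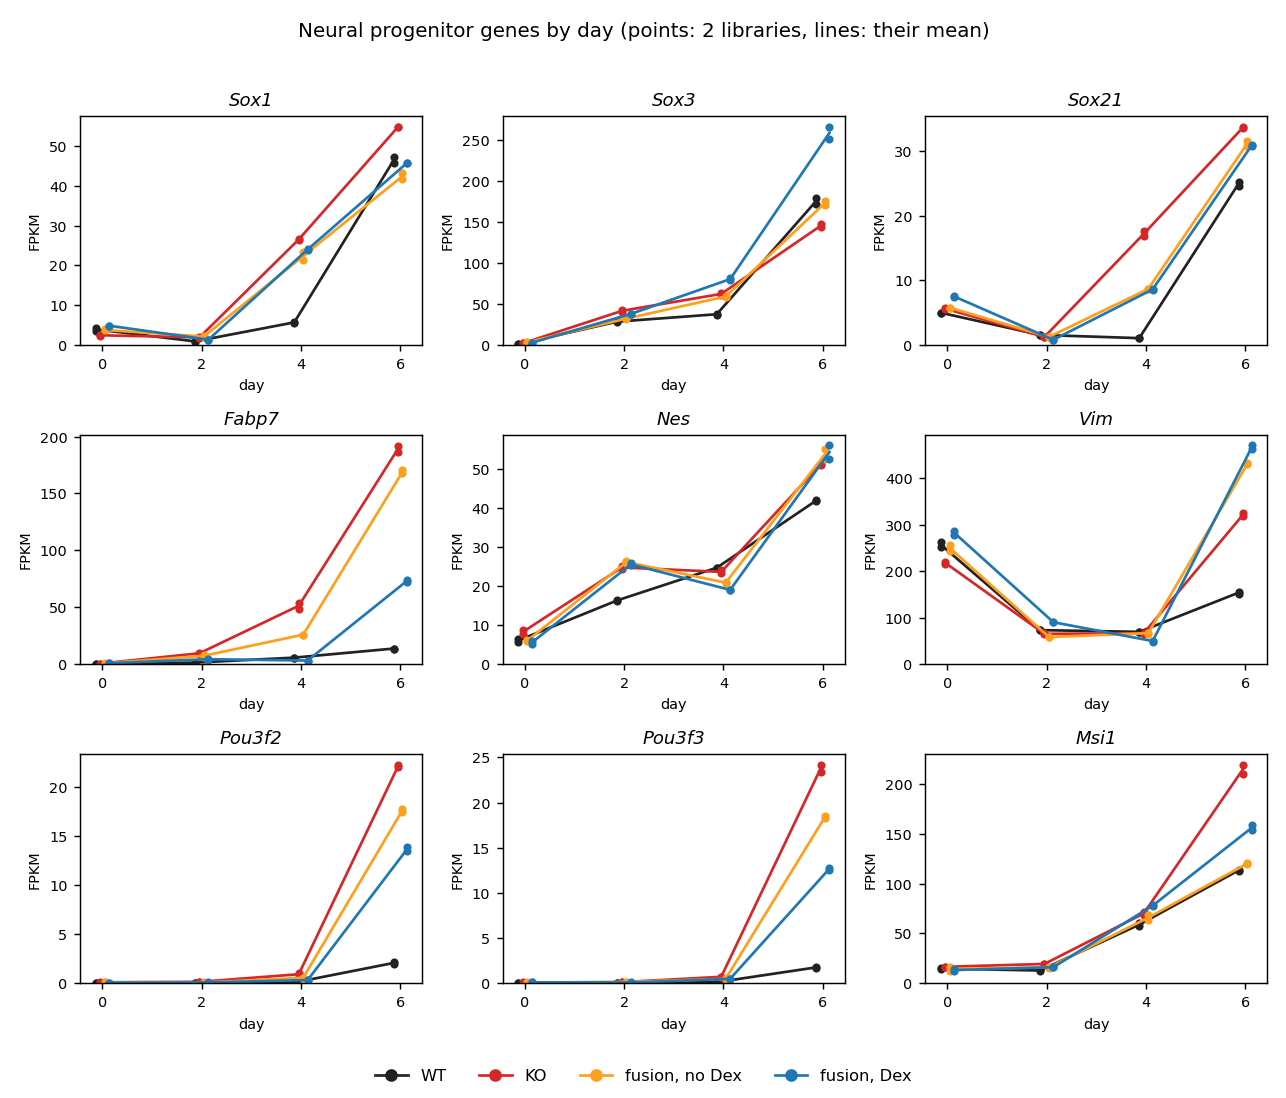
Expression of the 9 neural progenitor genes, in FPKM on linear axes, against day, with 1 panel per gene, 1 point per library and lines through the means of the 2 libraries of each line. At day 4 WT lies well below the other lines for Sox1 and Sox21. At day 6 WT is lowest for Sox21, Fabp7, Nes, Vim, Pou3f2, Pou3f3 and Msi1, by the widest ratios for Fabp7 (13.9) and Pou3f3 (13.6).

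Levels at day 6 spanned more than a factor of 10 between members on the per-length FPKM scale. In WT the highest mean levels at day 6 were those of Sox3 (175 FPKM), Vim (153 FPKM) and Msi1 (113 FPKM), and the lowest were those of Pou3f2 (2.07 FPKM) and Pou3f3 (1.75 FPKM). The summed level of the 9 genes at day 6 was 573 FPKM in WT, 1056 FPKM in KO, 1057 FPKM in no Dex and 1112 FPKM in Dex. Vim made up 26.8% of that sum in WT and 42.0% in Dex, and at day 0 it made up 89.3% of it in WT. At day 0 only Vim and Msi1 were above 10 FPKM.

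Sox1, which marks the earliest neural plate, was several times higher at day 4 in the other lines than in WT. At day 4 its level was 5.56 and 5.73 FPKM in the WT libraries, 26.53 and 26.56 in KO, 23.31 and 21.47 in no Dex, and 23.98 and 24.08 in Dex. Both WT libraries lay below all 6 others. KO against WT gave a log2 change of 2.05 (SE 0.06, adjusted p = 6.93e-16), a ratio of means of 4.7. At day 6 the libraries read 47.21 and 45.69 FPKM in WT, 54.85 and 54.93 in KO, 41.66 and 43.33 in no Dex, and 45.85 and 45.77 in Dex. The spread between lines had then narrowed to a ratio of 1.29 between the highest and lowest means. KO remained above WT by 0.24 (SE 0.06, adjusted p = 0.00147), and Dex against WT was -0.02 (adjusted p = 0.803), with overlapping libraries. Day 4 thus held 12.2% of the day 6 level in WT, against 48.4% in KO, 52.7% in no Dex and 52.5% in Dex.

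Sox1 lies on chromosome 8, and the tested genes of that chromosome were higher as a group in KO than in WT. From day 0 to day 6 the medians of its 858 tested genes were 0.01, 0.24, 0.34 and 0.35. Less that median, the Sox1 change was 0.37, 1.71 and -0.11 at days 2, 4 and 6, so the day 6 direction turned. At day 0, where Sox1 was lower in KO (-0.52, adjusted p = 5.07e-07), the subtraction gave -0.53. In Dex against WT at day 6 the chromosome 8 median was also 0.35, beside the Sox1 change of -0.02. The part of the chromosome's shift in these differences was not tested.

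Sox3, the X-linked relative of Sox1, was well above it at day 2 in all lines. It went from 0.44 and 1.2 FPKM in the day 0 WT libraries to 28.15 and 28.43 at day 2 and 36.4 and 38.14 at day 4. Its day 6 values were 178.72 and 171.79 FPKM in WT, 143.19 and 146.89 in KO, 170.26 and 175.65 in no Dex, and 251.31 and 265.77 in Dex. Dex stood above the other lines, KO below them, and the WT and no Dex libraries overlapped. Dex against no Dex gave 0.58 at day 6 (SE 0.11, adjusted p = 0.000214) and 0.44 at day 4 (adjusted p = 0.00286). KO was above WT at days 0, 2 and 4, by 0.66, 0.53 and 0.72, and below it at day 6 by -0.27 (adjusted p = 0.0329). That last call was lost when any of the 4 libraries of the comparison was left out, with changes from -0.24 to -0.30, and also with rescaling, no filter or a pseudocount of 0.1. With that pseudocount the day 4 call for Dex against no Dex was lost too (0.44). In KO against WT at day 6 the 587 tested genes of the X chromosome had a median of -0.17. The part of that shift in the Sox3 difference was not tested.

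Sox21 was lower at day 2 than at day 0 in all lines, and at day 4 the lines differed most. It read 4.94 and 5 FPKM in WT at day 0, 1.52 and 1.54 at day 2, and 1.05 and 1.01 at day 4. At day 4 KO read 16.8 and 17.55 FPKM, no Dex 8.65 and 8.63, and Dex 8.56 and 8.62. KO was the highest line and WT the lowest, while the fusion groups lay between them with or without dexamethasone. KO against WT gave 3.16 (SE 0.03, adjusted p = 6.69e-22), a ratio of means of 16.7, and no Dex against KO gave -0.91 (adjusted p = 8.29e-13). Dex against no Dex was -0.01 at day 4 and -0.01 at day 6 (adjusted p = 0.9 and 0.824). At day 6 Sox21 read 25.28 and 24.58 FPKM in WT and between 30.76 and 33.76 FPKM in the 6 other libraries. KO then exceeded WT by 0.42 (adjusted p = 1.38e-09). In WT the day 4 level was 4.13% of the day 6 level, against 51% in KO.

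Pou3f2 and Pou3f3 had the same order of lines at day 6, and before day 4 neither exceeded 0.17 FPKM in any library. Their promoters are shown because of that shared order: each run is the 250 bases before the RefSeq transcription start on GRCm38.p6, 5′ to 3′ on the gene's strand. Capitals mark a match to TGGGAA, the core letters bound by the Notch effector RBPJ, on either strand.
Pou3f2 (chr4:22488367-22488616, minus strand): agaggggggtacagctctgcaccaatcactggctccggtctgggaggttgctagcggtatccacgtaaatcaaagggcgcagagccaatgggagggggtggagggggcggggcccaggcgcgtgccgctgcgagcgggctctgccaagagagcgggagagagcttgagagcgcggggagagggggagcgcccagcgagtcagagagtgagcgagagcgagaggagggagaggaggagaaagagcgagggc
Pou3f3 (chr1:42695518-42695767, plus strand): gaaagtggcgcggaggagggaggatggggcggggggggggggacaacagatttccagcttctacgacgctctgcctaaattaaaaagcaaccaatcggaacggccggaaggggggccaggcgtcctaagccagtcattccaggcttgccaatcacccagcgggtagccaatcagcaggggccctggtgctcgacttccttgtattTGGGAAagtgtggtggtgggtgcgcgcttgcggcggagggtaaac
The Pou3f3 window holds 1 such match, 45 bases before the start. The Pou3f2 window has none of the 3 motifs searched on both strands, which were TGGGAA, the octamer ATGCAAAT and the Sox core CATTGT. Of all 32851 promoters of this length, 21.6% hold TGGGAA, 1.6% the octamer and 10.7% the Sox core, so a match is common and describes letters only. Both windows are GC-rich, at 66.8% and 60.8%, against a median of 52.4% over all promoters.

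Pou3f2 read 0.04 and 0.09 FPKM in WT at day 4, 0.79 and 1.04 in KO, 0.55 and 0.56 in no Dex, and 0.35 and 0.29 in Dex. By day 6 the values were 1.96 and 2.17 FPKM in WT, 22.01 and 22.22 in KO, 17.79 and 17.5 in no Dex, and 13.85 and 13.46 in Dex. On both days the order was KO, no Dex, Dex and WT, with no overlap between lines. KO against WT was 2.92 at day 6 (SE 0.06, adjusted p = 8.13e-19), a ratio of means of 10.7. At day 4 it was 0.84, where the means were 0.915 and 0.065 FPKM, a ratio of 14.1. Dex against no Dex was -0.35 at day 6 (adjusted p = 5.79e-05). Dex against WT was 2.26 at day 6 (adjusted p = 8.74e-17), so the level with dexamethasone stayed nearer to no Dex than to WT.

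Pou3f3 had much the same levels at day 6, when it read 1.69 and 1.81 FPKM in WT, 23.36 and 24.11 in KO, 18.52 and 18.26 in no Dex, and 12.77 and 12.58 in Dex. The order was again KO, no Dex, Dex and WT, with all pairs of libraries apart. KO against WT was 3.17 (SE 0.05, adjusted p = 5.67e-21), a ratio of 13.6, and Dex against no Dex was -0.50 (adjusted p = 3.62e-08). At day 4 KO exceeded WT by 0.62 (adjusted p = 5.06e-10), with means of 0.71 and 0.11 FPKM, a ratio of 6.45. No Dex and Dex then had the same mean, 0.49 FPKM. Dex against no Dex at day 4 was thus 0.00 and not called for Pou3f3, whereas it was -0.24 for Pou3f2 (adjusted p = 0.00245). In day 6 libraries the ratio of Pou3f2 to Pou3f3 FPKM stayed between 0.922 and 1.20 over all 4 lines.

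Fabp7 showed the largest difference between KO and WT of the 9 genes at day 6. It also showed the largest difference between Dex and no Dex at days 4 and 6. Its promoter is shown in the same way, since Fabp7 is known for control by Notch signalling.
Fabp7 (chr10:57784673-57784922, plus strand): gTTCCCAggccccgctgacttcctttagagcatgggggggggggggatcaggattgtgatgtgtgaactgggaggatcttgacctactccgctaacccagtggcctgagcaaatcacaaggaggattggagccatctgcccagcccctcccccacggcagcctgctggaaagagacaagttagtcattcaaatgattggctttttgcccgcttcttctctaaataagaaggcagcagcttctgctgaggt
The window holds 1 match to the RBPJ core, on the minus strand and 249 bases before the start, and neither of the other motifs. Its GC content is 54.8%.

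At day 2 Fabp7 read 1.31 and 1.17 FPKM in WT, 8.86 and 10.02 in KO, 8.14 and 6.4 in no Dex, and 3.69 and 4.77 in Dex. At day 4 it read 5.5 and 5.68 FPKM in WT, 53.61 and 48.79 in KO, 25.83 and 25.75 in no Dex, and 3.03 and 3.06 in Dex. With dexamethasone the level at day 4 was thus the lowest of the 4 lines, below WT. At day 6 it read 13.58 and 13.55 FPKM in WT, 191.49 and 186.77 in KO, 170.14 and 167.63 in no Dex, and 73.76 and 72.44 in Dex. WT was by far the lowest and Dex lay between it and the other lines.

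The Fabp7 changes in KO against WT were 2.22, 2.98 and 3.71 at days 2, 4 and 6 (SE 0.11 each, adjusted p = 3.79e-12, 3.66e-14 and 5.66e-16). The ratios of means were 7.61, 9.16 and 13.9. For Dex against no Dex they were -0.66, -2.73 and -1.20 (adjusted p = 8.95e-05, 9.42e-13 and 6.33e-08), and no Dex exceeded Dex by ratios of 1.72, 8.47 and 2.31. The day 2 call was lost with a pseudocount of 0.1 (-0.77) or with the 4 day 2 libraries of these groups alone (-0.66). Dex remained above WT at day 6 by 2.35 (adjusted p = 1.1e-12). No Dex against KO was -0.96 at day 4 (adjusted p = 4.38e-06) and -0.16 at day 6 (adjusted p = 0.254). In Dex the day 4 level was 4.17% of the day 6 level, against 15.3% in no Dex and 27.1% in KO. The day 0 values, between 0 and 0.81 FPKM, rest on few fragments. The day 0 call in KO against WT (0.32, adjusted p = 0.0253) was lost without WT replicate 1, where the gene is listed at 0 (0.19), or without KO replicate 2 (0.28).

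Nes encodes nestin, the filament protein by which neural stem cells are most often recognised, and it varied little between lines. It was already higher at day 2, going from between 5.12 and 8.63 FPKM at day 0 to between 16.27 and 26.47 FPKM at day 2. By day 6 the libraries read 42.03 and 41.91 FPKM in WT, 51.11 and 51.38 in KO, 52.61 and 55.23 in no Dex, and 56.21 and 52.67 in Dex. WT was below the 6 other libraries, and the fusion groups overlapped. KO against WT was 0.57 at day 2 and 0.28 at day 6 (SE 0.06 each, adjusted p = 4.27e-08 and 0.000187) and -0.06 at day 4 (adjusted p = 0.368). Dex against no Dex lay between -0.13 and 0.01 at the 4 days and was not called at any of them.

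Vim, which encodes vimentin, a filament protein of progenitors and also of mesenchymal and many cultured cells, had a different course. It read between 215.81 and 287.11 FPKM in the 8 day 0 libraries, between 57.7 and 90.46 at day 2 and between 48.26 and 69.88 at day 4. At day 6 it read 151.54 and 155.31 FPKM in WT, 318.53 and 323.91 in KO, 429.71 and 432.1 in no Dex, and 462.95 and 470.98 in Dex. The order WT, KO, no Dex, Dex held with no overlap. KO against WT was 1.06 at day 6 (SE 0.03, adjusted p = 1.4e-16), no Dex against KO 0.42 and Dex against no Dex 0.12 (adjusted p = 4.84e-10 and 0.00323). From day 0 to day 6 Vim fell in WT by 0.74 and rose in KO, no Dex and Dex by 0.56, 0.78 and 0.72. Markers of mesoderm and mesenchyme also differed at day 6. In KO against WT, 5 of the 8 tested were higher and 3 lower, against 30.9% and 34.2% of all genes. The summed level of the list was 33.5 to 33.6 FPKM in WT, 44.3 to 44.6 in KO, 34.8 to 35.5 in no Dex and 43 to 43.7 in Dex. Twist1, a mesenchymal transcription factor, had WT and KO means of 1.57 and 20.1 FPKM, and Prrx1, of the same list, 0.515 and 3.02 FPKM. The contractile and matrix genes Acta2 and Col1a2 and the receptor gene Pdgfra were lower in KO: their WT means were 18.4, 7.13 and 4.36 FPKM, and their KO means 11.5, 1.52 and 1.54 FPKM. Their part in the Vim result was not tested.

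Msi1, which encodes Musashi-1, was highest in KO at day 6. The day 6 libraries read 113.41 and 113.16 FPKM in WT, 219.29 and 210.43 in KO, 120.74 and 119.77 in no Dex, and 158.44 and 153.99 in Dex. KO stood apart at the top, Dex came next, and no Dex was close above WT. KO against WT was 0.92 (SE 0.07, adjusted p = 6.23e-10), no Dex against KO -0.83 (adjusted p = 7.12e-09) and Dex against no Dex 0.37 (adjusted p = 0.000213). It was also higher in KO at days 2 and 4, by 0.57 and 0.25 (adjusted p = 9.01e-07 and 0.00443), and the day 4 call was lost with rescaling (0.14). The day 4 call for Dex against no Dex (0.24, adjusted p = 0.00933) was lost without no Dex replicate 2 (0.19).

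**Figure D2:**
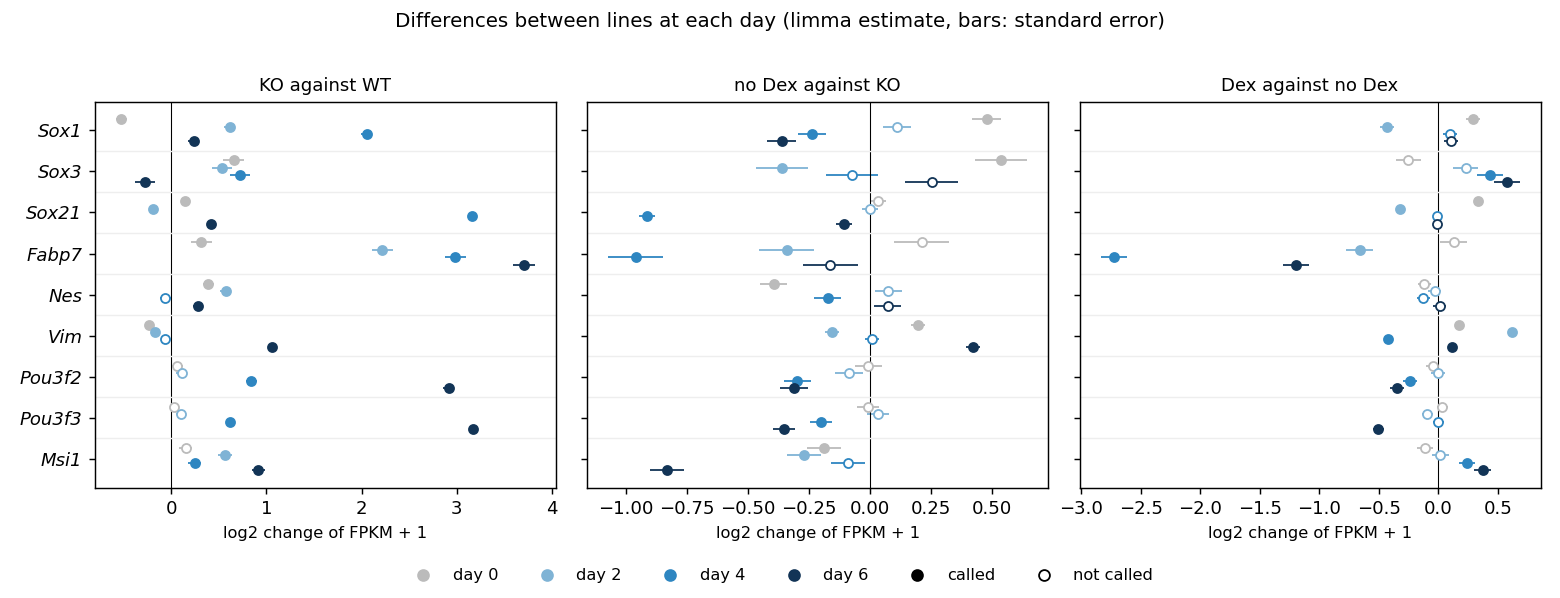
Log2 change of FPKM + 1 for each of the 9 genes (rows) in 3 comparisons (panels, each with its own scale), with 1 point per day, bars for the standard error, filled points for called genes and open points for those not called. Fabp7 has the largest day 6 change in KO against WT (3.71) and the largest fall in Dex against no Dex (-2.73 at day 4).

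Over the 9 genes, KO against WT asks how the labelled knockout of Mettl3 bears on these genes at each day. KO and WT are different lines, so the knockout and other differences between the lines cannot be told apart. At day 0 the count was 4 members higher and 2 lower, with 48.2% of all tested genes called (18.4% higher, 29.8% lower). At day 2 it was 5 higher and 2 lower, with 58.9% of all genes called (37.5% and 21.3%). At day 4 it was 7 higher and none lower, with 60.5% of all genes called (36.5% and 24%). Nes and Vim were the members not called at day 4. At day 6 it was 8 higher and 1, Sox3, lower, with 65.1% of all genes called (30.9% and 34.2%). The members' median change was 0.14, 0.53, 0.72 and 0.92 from day 0 to day 6, against all-gene medians of -0.04, 0.09, 0.07 and -0.03. The difference between the day 6 and day 0 changes was called for 8 members, 7 of them higher and 1 lower, against 56.9% of all genes (31.1% and 25.8%). Fitted with the 4 day 0 libraries alone, only 1 member was called at day 0. With rescaling the day 4 count was 6 higher and 2 lower, since Nes (-0.16) and Vim (-0.17) were called and Msi1 (0.14) was not, and the day 6 count was 8 higher and none lower.

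No Dex against KO asks what the fusion does in the form labelled cytosolic, and it shares the KO libraries with the comparison above. Effects of the fusion and of other differences between these lines cannot be told apart. At day 0 the count was 3 members higher and 2 lower, against 49.1% of all genes called (19.3% higher, 29.8% lower). At day 2 it was none higher and 4 lower, against 37% (14.8% and 22.2%), and without no Dex replicate 1 it fell to 2. At day 4 it was none higher and 6 lower, against 26.7% of all genes (9.66% and 17%). Those 6 were Sox1, Sox21, Fabp7, Nes, Pou3f2 and Pou3f3, and Sox21 and Fabp7 moved most. The call for Nes (-0.17) was lost when any of its 4 libraries was left out, with changes from -0.15 to -0.20, and that for Sox1 (-0.24) was lost without no Dex replicate 2 (-0.18). At day 6 Vim was higher and 5 members were lower, Msi1 (-0.83), Sox1 (-0.36), Pou3f3 (-0.35), Pou3f2 (-0.31) and Sox21 (-0.11), with 49% of all genes called (21.1% higher, 27.9% lower). The members' medians were 0.03, -0.08, -0.20 and -0.16, against all-gene medians of -0.03, -0.04, -0.03 and -0.01. The Sox21 call was lost without KO replicate 1 (-0.10) or no Dex replicate 2 (-0.09). With a pseudocount of 0.1 in place of 1, 2 members were called at day 2 and 3 at day 6. With the compared groups alone, 2 were called at day 4. With rescaling, the day 0 count was 4 higher and 1 lower, and that of day 6 was 2 higher and 5 lower.

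At days 2, 4 and 6, Dex against no Dex asks what changed when the same fusion was moved to the nucleus, per the design text. It shares the no Dex libraries with the preceding comparison. The protocol gives dexamethasone for 2, 4 and 6 days, so whether the day 0 Dex libraries had the drug is not known. No WT or KO culture had dexamethasone, so effects of the drug and of the moved fusion cannot be told apart. The calls at days 2, 4 and 6 may also hold a difference between the Dex and no Dex cultures already present at day 0. At day 0 the count was 3 members higher and none lower, against 43.4% of all genes called (27.3% higher, 16.1% lower). At day 2 it was 1 higher, Vim, and 3 lower, Sox1, Sox21 and Fabp7, against 44.3% (12.7% and 31.5%). At day 4 it was 2 higher, Sox3 and Msi1, and 3 lower, Fabp7, Vim and Pou3f2, against 40.2% (18.3% and 21.9%). At day 6 it was 3 higher, Sox3, Vim and Msi1, and 3 lower, Fabp7, Pou3f2 and Pou3f3, against 42.7% (23.8% and 19%). The members' median at day 6 was 0.01 and that of all genes 0.01. From day 0 to day 6, 3, 4, 5 and 6 of 9 members were called, beside 43.4%, 44.3%, 40.2% and 42.7% of all genes. With rescaling the day 0 count was 3 higher and 3 lower, as Sox3 (-0.32), Nes (-0.19) and Msi1 (-0.19) were then called, and the day 2 count was 2 higher and 3 lower. Sox1, Sox21 and Nes at day 6 had changes of 0.11, -0.01 and 0.01 and were not called. The difference between the day 6 and day 0 changes was called for 6 members, 2 higher and 4 lower, against 48.7% of all genes (22.7% and 25.9%). With a pseudocount of 0.1, Pou3f2 at day 6 was no longer called (-0.37).

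Dex against WT at day 6 compares the line with nuclear fusion with cells whose own Mettl3 was not targeted. All members except Sox1 were higher in Dex, 8 of 9, against 61.4% of all genes called (29.2% higher, 32.2% lower). Fabp7 (2.35), Pou3f3 (2.31), Pou3f2 (2.26) and Vim (1.60) differed most, and Sox21 (0.30) and Nes (0.37) least. The members' median was 0.56 and that of all genes -0.02.

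The family relatives of the members did not move as a block. Sox2, the third SoxB progenitor factor and also a pluripotency factor, stayed between 127 and 247 FPKM in the 16 group means, and in KO against WT its changes were 0.19 at day 4 and 0.10 at day 6 (adjusted p = 0.000454 and 0.0385). Pou3f1 was highest at day 2, with WT and KO means of 108 and 155 FPKM, and by day 6 these were 4.43 and 19.2 FPKM. Fabp3, a fatty acid carrier best known from muscle, went the other way from Fabp7: its WT and KO means at day 6 were 205 and 24.6 FPKM, a change of -3.01 (adjusted p = 2.45e-21). In Dex against no Dex it rose by 1.06 where Fabp7 fell by 1.20. Fabp5, a carrier of broad tissue range, had WT and KO means of 204 and 144 FPKM (-0.50, adjusted p = 3.18e-11). Msi2, the paralogue of Msi1, looked up after its values were seen, was lower in KO than in WT at all 4 days and at day 6 by -0.77 (adjusted p = 2.41e-11), whereas Msi1 was higher.

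**Figure D3:**
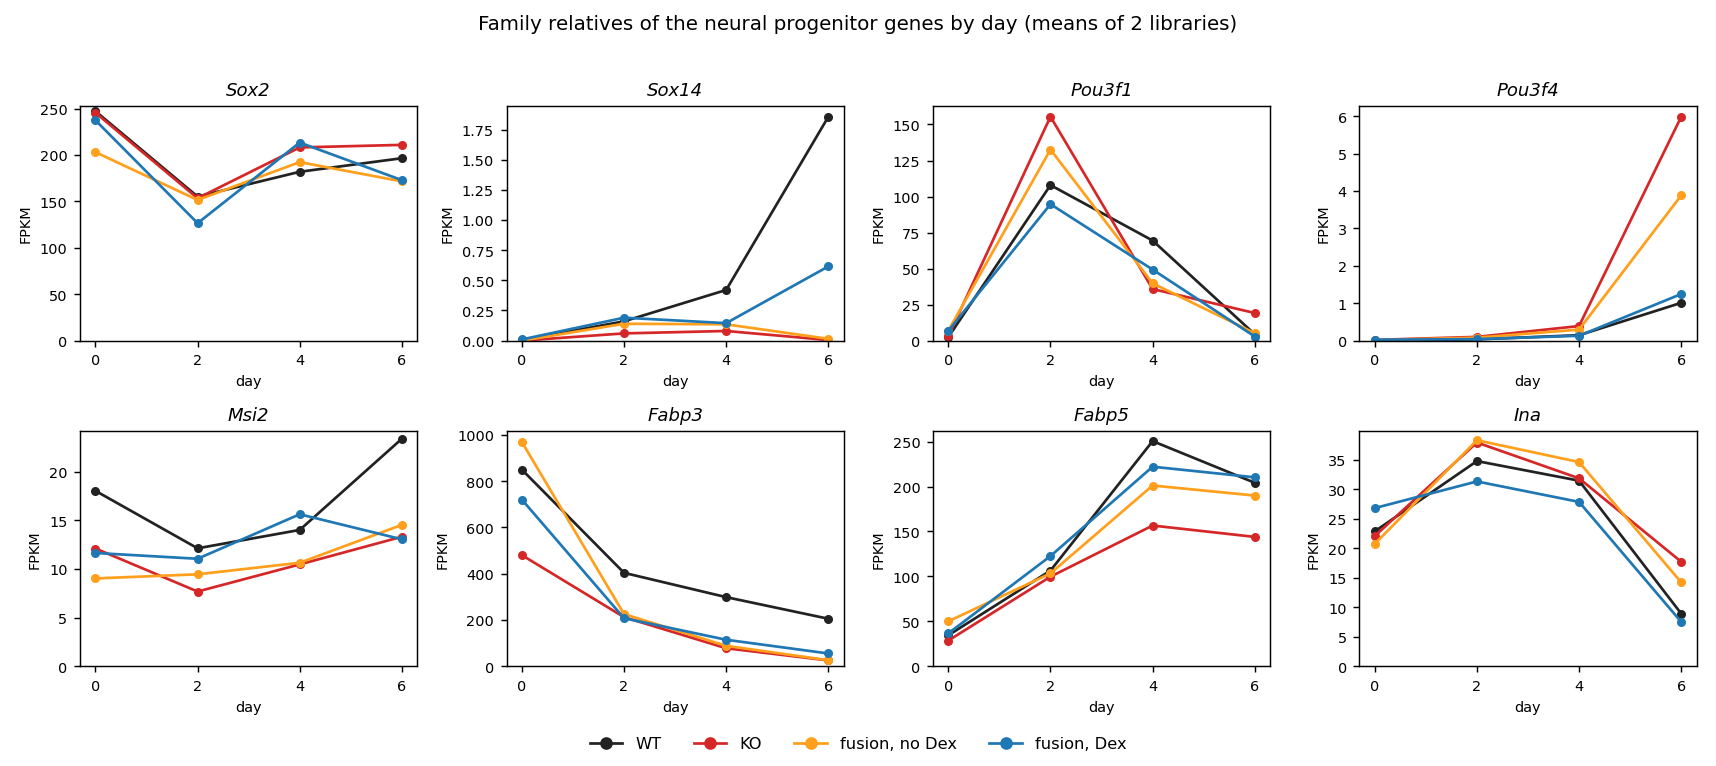
Mean FPKM of 2 libraries (linear axes) against day for 8 relatives of the 9 genes, with 1 panel per gene and 1 line per culture type. Fabp3 and Msi2 are highest in WT at day 6, and Pou3f4 is highest in KO.

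Of these 8 relatives, 4 were higher and 4 lower in KO than in WT at day 6, with a median of -0.20, and 3 were higher and 4 lower in Dex than in no Dex. Pou3f4, the remaining neural member of the POU class, was looked up after its values were seen. At day 6 its means were 1.01 FPKM in WT, 5.98 in KO, 3.88 in no Dex and 1.25 in Dex. It had the order of Pou3f2 and Pou3f3, with KO against WT at 1.80 and Dex against no Dex at -1.12 (adjusted p = 2.39e-15 and 2.5e-11).

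Other neural progenitor genes rose in the same period, 17 of 18 from day 0 to day 6 in WT, and at day 4 most were higher in KO. Of the 18, 17 were higher in KO than in WT at day 4 and 1, Prom1, was lower, with a median of 0.56 against an all-gene median of 0.07. At day 6 9 were higher and 7 lower, with a median of 0.06. Cdh2, the neural cadherin, stood at 107 FPKM in WT as in KO at day 6, and Pax6 at 110 and 112 FPKM. Nr2f1, a nuclear receptor of forebrain patterning, was higher in KO (0.94, adjusted p = 9.7e-09), and Hes1, a Notch effector, was lower (-2.69, adjusted p = 1.93e-16). Hes5, another Notch effector singled out after its values were seen, had means of 14.5 (WT) and 146 FPKM (KO) at day 6. In Dex against no Dex at day 6, 5 of the 18 were higher and 5 lower.

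Of 8 radial glia genes, 4 passed the filter, and all 4 of those were lower in KO than in WT at day 6, with a median of -0.96. Among them Glul, which encodes glutamine synthetase, was lower by -0.14 and Ptprz1, a receptor phosphatase of radial glia, by -1.63. In Dex against no Dex at day 6, 2 of the 4 were higher. Fabp7 thus differed in direction from the tested radial glia genes in KO.

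Early neuron genes had the order of the POU members at day 6 in their summed level: KO, no Dex, Dex and WT. In KO against WT at day 6, 8 of 10 were higher and none lower, with a median of 1.40, and in Dex against no Dex all 10 were lower, with a median of -0.84. Their summed level at day 6 was 67.2 to 70.2 FPKM in WT, 382 to 386 in KO, 322 to 323 in no Dex and 197 in Dex. In the day 0 stem cells the sums were 346 to 349 FPKM in WT and 308 to 323 in KO. They were 325 to 332 in no Dex and 324 to 325 in Dex, so a high sum was not particular to day 6. Tubb3, which encodes the neuronal tubulin, had WT and KO means of 29.2 and 266 FPKM at day 6, and 156 and 190 FPKM at day 0. Stmn2, another gene of the list, went from 178 to 11.3 FPKM in WT and from 109 to 23.3 FPKM in KO. Gap43, a growth cone protein, had WT and KO means of 4.2 and 47.5 FPKM at day 6. Nefl and Nefm, the neurofilament genes, had changes of 0.09 and -0.05 and were not called. How far young neurons carry the Pou3f2, Pou3f3 and Fabp7 values was not tested.

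**Figure D4:**
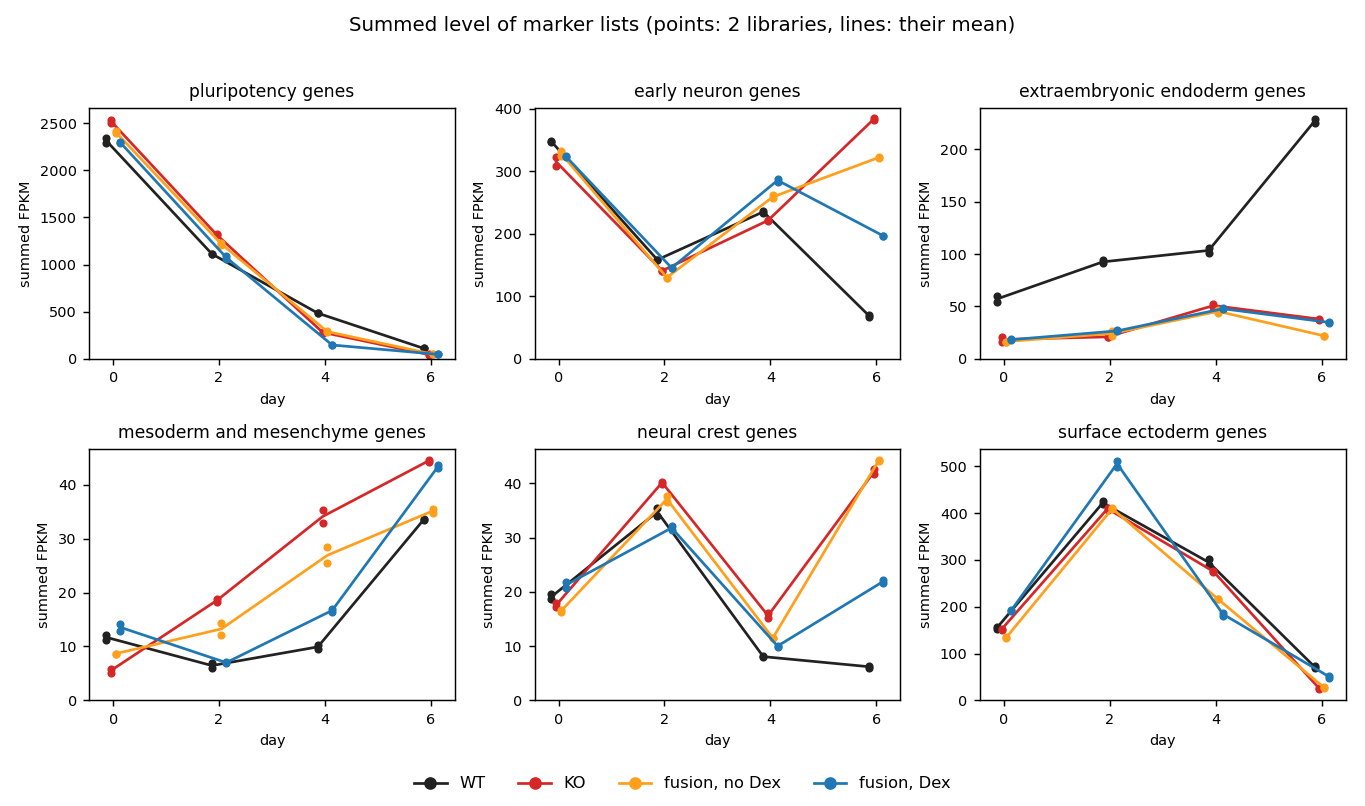
Summed FPKM of 6 marker lists (linear axes) against day, with 1 point per library and lines through the means of the 2 libraries of each line. At day 6 extraembryonic endoderm markers are highest in WT (225 to 229 FPKM) and lowest in no Dex (21.8 to 22.1), and early neuron markers at day 6 are highest in KO.

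Markers of other cell types moved with the lines as well. All 10 extraembryonic endoderm genes were lower in KO than in WT at day 6, with summed levels of 225 to 229 FPKM in WT, 37.4 to 38.4 in KO, 21.8 to 22.1 in no Dex and 34.6 to 35 in Dex. Afp was listed at 0 in the day 6 libraries of KO, no Dex and Dex. In Dex against no Dex 7 of the 10 were higher and none lower. All 6 neural crest genes were higher in KO, with sums of 6.05 to 6.34 FPKM in WT, 41.6 to 42.6 in KO, 44 to 44.4 in no Dex and 21.6 to 22.2 in Dex, and none was listed at 0 in both libraries of a day 6 group. In Dex against no Dex 1 of the 6 was higher and 4 lower. Of 12 pluripotency genes, 10 were lower in KO at day 6 and none higher, with sums of 110 to 111 FPKM in WT and 45.3 to 45.9 in KO. All 5 tested surface ectoderm genes were lower, with sums of 69.6 to 73.5 and 24.6 to 25.4 FPKM. These markers differed between lines at day 6, some in the direction of most members and some against it. Their part in the members' differences was not tested.

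Described over the 16 group means of log2(FPKM + 1), the members fell into close and loose pairs. Pou3f2 and Pou3f3 had a Pearson r of 0.998, Sox3 and Nes 0.956, Sox1 and Msi1 0.943, and Sox1 and Sox21 0.908. Vim had the lowest pairs, with r of -0.11 to Sox3 and 0.00 to Nes, but its r was 0.62 to Pou3f2 and to Pou3f3. Without Vim the loosest pair was Sox21 and Nes, at 0.394. All of these values share libraries and the time course, and they carry no test. Among 8817 other genes with a mean of at least 5 FPKM, the 2 most like each member were Phc2 and Slc31a1 for Sox1, Adgrl2 and Suv39h1 for Sox3, and Msl1 and Meis2 for Sox21. They were B4galt4 and Rnf11 for Fabp7, Tada1 and Marcks for Nes, Rab3a and Tubb2b for Vim, and Arpin and Spg20 for Msi1. For Pou3f2 they were Pantr1 (r = 0.991) and Vtn (r = 0.989), and for Pou3f3 Wfdc1 (r = 0.993) and Pantr1 (r = 0.991). Pantr1 is a long noncoding RNA gene next to Pou3f3, at chr1:42590782-42694842 on the minus strand, where Pou3f3 spans chr1:42695768-42703176 on the plus strand. Its means at day 6 were 3.9 FPKM in WT, 42.1 in KO, 73.3 in no Dex and 41.9 in Dex, so its highest line was no Dex and not KO.

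The other members lie apart from one another in the genome (GRCm38, GENCODE M21 annotation): Sox1 at chr8:12395295-12400126, Sox3 at chrX:60891366-60893430, Sox21 at chr14:118233232-118237030, Fabp7 at chr10:57784881-57788450, Nes at chr3:87971078-87980451, Vim at chr2:13573927-13582826, Pou3f2 at chr4:22482780-22488366 and Msi1 at chr5:115429599-115455698. All 9 are protein-coding, and the Sox and Pou members have a single exon. An antisense gene, Gm4675, overlaps the exon of Sox21 and reached at most 3.06 FPKM. Whether fragments were counted by strand is not given in the sources used here, so reads of the antisense gene and of Sox21 may not be separable. GGACT, a common form of the m6A consensus, was counted in the longest coding transcript of each member. The counts were 11 in Nes (1.8 per kb), 3 in Sox3 (1.45), 4 in Msi1 (1.28) and 1 in Fabp7 (1.14). They were 2 in Vim (0.912), 3 in Sox1 (0.621), 3 in Pou3f2 (0.537), 2 in Pou3f3 (0.27) and 1 in Sox21 (0.263). The median of 13588 tested coding genes was 1.05 per kb. These are counts of letters, and no methylation was measured.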

How the data were processed

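Polyadenylated RNA of 32 libraries was sequenced as read pairs of 150 bases, per the labels. STAR and Cuffdiff are named with the mm10 build in the submitters' processing notes, without versions. The authors deposited FPKM, rounded to 2 decimals, in a table of 55492 rows. The unit is taken from the table's name and values. IDs were placed with GENCODE M21 (99.367% matched). Promoters came from a RefSeq table of GRCm38.p6, which held 7 of the 9 members.

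Low FPKM values fall in steps of 1 fragment, which gave the depth of each library. Of these values 89.9% to 93.1% were whole fragments to within 0.2, where 40% would be by chance. Floors of 3 fragments cover counting error only.

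Tests used limma 3.58.1 in R 4.3.3 (lmFit, contrasts.fit, eBayes with trend) on log2(FPKM + 1), a scale that understates changes of low genes. Genes with at least 1 FPKM in at least 2 libraries were tested, 16276 in all, in 1 fit of 16 group means, two-sided, with Benjamini-Hochberg adjustment. The script was tested on simulated data. Alternatives were a pseudocount of 0.1, other filters, median-of-ratios rescaling, the replicate number as a block, the compared groups alone, each library left out and, for Sox1, subtraction of the chromosome 8 median.

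The members, the 9 gene lists and the comparisons were chosen with earlier results of these data known. Beyond the members, the text names up to 5 genes per list, those with the highest mean FPKM, and the 2 genes most like each member. Named outside that rule, after their values were seen, were Prom1, Hes5, Pou3f4, Msi2, Afp, Gm4675 and Mettl3.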

Additional observations from a re-analysis of the deposited data

Results flagged for a closer look

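The signed KO against WT change at day 6 less that at day 0 was tested in limma, and 8 of the 9 genes were called. On the log2(FPKM + 1) scale the day 6 change less the day 0 change was 3.39 for Fabp7 (adjusted p = 1.26e-12), 3.14 for Pou3f3 (4.31e-18), 2.85 for Pou3f2 (6.81e-16) and 1.30 for Vim (4.03e-15). It was 0.77 for Msi1 (1.77e-06), 0.76 for Sox1 (2e-07), 0.27 for Sox21 (6.04e-05) and -0.93 for Sox3 (3.28e-05). At day 0 the WT and KO means of Fabp7, Pou3f2 and Pou3f3 were at most 0.36 FPKM, where adding 1 keeps a change small. Their ratios of means, KO over WT, were 3.79, 2.11 and 1.56 at day 0. At day 6 those ratios were 13.9, 10.7 and 13.6. For Sox1 (-0.52 at day 0, 0.24 at day 6) and Sox3 (0.66 and -0.27) the estimates changed sign, so these values are not a widening gap. The turn is not firm for either gene. The Sox3 call at day 6 was lost with rescaling (-0.235) or a pseudocount of 0.1 (-0.273). Less the chromosome 8 median, Sox1 was at -0.527 at day 0 and -0.113 at day 6, with no change of sign. With the compared groups alone, limma called neither day 0 change (adjusted p = 0.0605 for Sox1 and 0.145 for Sox3). Of all tested genes, 56.9% were called in that test. The median over the tested genes of chromosome 8, which holds Sox1, was 0.33, and its part in the Sox1 value was not tested.

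For Dex against no Dex the same test called 6 of the 9 genes, against 48.7% of all genes. The protocol does not list dexamethasone at day 0, so the day 0 Dex group rests on its label. The difference was -1.33 for Fabp7 (adjusted p = 1.22e-06), -0.54 for Pou3f3 (1.19e-06), -0.34 for Sox21 (6.42e-06) and -0.30 for Pou3f2 (0.00435). With a pseudocount of 0.1 the Pou3f2 difference was -0.08 and not called (adjusted p = 0.845). It was 0.83 for Sox3 (0.000152) and 0.48 for Msi1 (0.000425).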

How the results depend on the processing

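The 19 member counts were recomputed under each alternative, and so were the 171 member changes, except that Pou3f2 and Pou3f3 had no value with the filter at a mean of 5 FPKM and that the chromosome 8 median was subtracted for Sox1 only, in 8 comparisons. With a pseudocount of 0.1 the count for no Dex against KO went from 4 to 2 at day 2 and from 6 to 3 at day 6. With rescaling the count for Dex against no Dex at day 0 went from 3 to 6. With the compared groups alone, KO against WT at day 0 went from 6 to 1 and no Dex against KO at day 4 from 6 to 2. Leaving out 1 library kept all other counts within 1.5 times, and gave between 2 and 3 for no Dex against KO at day 2, the lowest without no Dex replicate 1. The cause of these moves was not tested. With a replicate block, all 19 counts stayed and 1 member result gained a call (Vim in KO against WT at day 4, -0.07). Deviations of same-numbered libraries correlated between -0.0884 and 0.125 over 120 pairs, and same numbers were not taken as pairs. Rescaling moved the all-gene median of day 6 against day 0 by 0.12 in WT, 0.10 in KO, 0.19 in no Dex and 0.15 in Dex.

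Directions turned only for changes that were not called, apart from Sox1 in KO against WT at day 6 (-0.113 less the chromosome 8 median). With rescaling these were, for no Dex against KO at day 0, Pou3f2 (0.0053) and Pou3f3 (0.00147), for Dex against no Dex, Nes (0.0805) and Pou3f2 (0.00807) at day 2 and Sox21 (0.00979) at day 4, for Dex against WT, Sox1 (0.0163), and for day 6 less day 0 in Dex against no Dex, Vim (0.0086). With 1 library left out, Sox1 in Dex against WT ran from -0.0425 to 0.0037. For no Dex against KO, the range was -0.0392 to 0.0267 for Pou3f2 and -0.0408 to 0.027 for Pou3f3 at day 0, -0.0321 to 0.0329 for Sox21 at day 2 and -0.0169 to 0.0304 for Vim at day 4. For Dex against no Dex, it was -0.0389 to 0.299 for Fabp7 and -0.267 to 0.0478 for Msi1 at day 0, -0.021 to 0.0551 for Msi1 and -0.0338 to 0.0333 for Pou3f2 at day 2, -0.0382 to 0.0393 for Pou3f3 at day 4, and -0.0315 to 0.00747 for Sox21 and -0.0328 to 0.0593 for Nes at day 6. With a pseudocount of 0.1, Pou3f2 (0.63) and Pou3f3 (0.60) gained calls in KO against WT at day 2. Depth limited Fabp7 in WT at day 0, where it read 0 and 0.19 FPKM and 3 fragments are worth up to 0.18 FPKM.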
